A study of Homo sapiens with 16 samples.

Results

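The genes described here carry symbols of cytosolic ribosomal proteins, and were measured in myeloma cell lines given short hairpin RNAs (shRNAs) against CD28 or CD86. They were chosen by symbol: RPL or RPS followed by a number, with an optional A, X or L and paralog number, plus RPSA, RPLP0, RPLP1 and RPLP2, without pseudogenes or the RPS6K kinases. Of 23459 genes in the deposited table, 83 symbols matched, and 77 of them reached a mean of 10 FPKM (fragments for each kilobase of exon, corrected for library size) over the 16 libraries. These 77 comprised 47 genes of the large (60S) subunit and 30 of the small (40S) subunit, and 5 carried a symbol that marks a paralog: RPL39L, RPS27L, RPL26L1, RPL22L1 and RPL7L1. The level minimum left out RPSA at a mean of 9.26 FPKM, RPL7 at 6.58, RPL21 at 2.90, RPL36A at 2.60, RPL3L at 0.00729 and RPL10L at 0. Just inside it were RPS7 at 10.5 FPKM, RPL7L1 at 12.4, RPL9 at 14.6 and RPL22L1 at 15.1.

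Each of 4 myeloma backgrounds received each of 4 constructs, with 1 library per combination. The backgrounds were KMS18, MM.1s, RPMI8226 overexpressing the anti-apoptotic protein Mcl1 (RPMI8226 + Mcl1, a single derived line) and the unmodified RPMI8226 line. The constructs were shRNAs against CD28 (a co-stimulatory receptor), CD86 (one of its ligands) or Gapdh (a control shRNA), and an empty vector (Vec). The question put by the design is which genes change when either partner of the CD28 and CD86 pair is silenced. The libraries were polyA-selected RNA-seq and held between 3914513 and 5900955 reads in genes. CD28 stood at 32.4 to 56.0 FPKM in the 4 CD28 shRNA libraries, against 45.8 to 70.6 FPKM in the Vec libraries, and was lower than Vec in each background. CD86 stood at 1.10 to 5.28 FPKM under its shRNA, against 2.49 to 6.92 FPKM with Vec, and GAPDH at 132.7 to 629.5 FPKM under its shRNA, against 985.3 to 1241 FPKM with Vec. Plasma cell genes were present in every library (MZB1 369.5 to 867.8 FPKM, PRDM1 11.4 to 65.8 FPKM), while CD3D, FCGR3A, COL3A1, DCN and LUM were at 0 in all 16.

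Ribosomal proteins are made in step with one another and assembled with ribosomal RNA in the nucleolus, and a dividing or secreting cell spends a large part of its transcription on them. Most of their mRNAs begin with a terminal oligopyrimidine (TOP) tract, a cytosine followed by a run of C and T at the transcription start. Through this tract mTORC1 signalling and the binding protein LARP1 control their translation. Myeloma cells are malignant plasma cells, whose antibody secretion places a heavy load on translation.

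The starts of 8 members are printed to show the TOP tract in parent genes beside the starts of 4 paralogs, of which RPL22L1 has a tract at its start and the other 3 do not. Each window runs from 10 bases before to 20 bases from the RefSeq start, on the gene's own strand, and capitals mark the unbroken run of C and T from the start.
RPLP1: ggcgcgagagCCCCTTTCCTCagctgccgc
RPS27: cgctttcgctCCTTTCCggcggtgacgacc
RPS27L: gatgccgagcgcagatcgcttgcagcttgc
RPL26: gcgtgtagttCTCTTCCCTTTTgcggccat
RPL26L1: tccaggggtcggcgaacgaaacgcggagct
RPL22: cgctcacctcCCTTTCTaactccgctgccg
RPL22L1: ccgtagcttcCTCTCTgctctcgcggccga
RPL7L1: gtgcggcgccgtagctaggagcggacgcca
In assembly GRCh38.p14 these windows lay at chr15:69452808-69452837 on the plus strand for RPLP1, chr1:153990752-153990781 (plus) for RPS27 and chr15:63157458-63157487 (minus) for RPS27L. They lay at chr17:8383174-8383203 (minus) for RPL26, at chr5:172958719-172958748 (plus) for RPL26L1, at chr1:6199576-6199605 (minus) for RPL22, at chr3:170870176-170870205 (minus) for RPL22L1 and at chr6:42879606-42879635 (plus) for RPL7L1. RefSeq listed 2 starts for RPL26L1, of which 1 is shown. Of the 77 members, 63 had a start in the promoter table, and 44 of these (69.8%) began with C and 4 further pyrimidines, against 5.14% of the 27305 genes in that table. Among members with a paralog symbol, 1 of the 4 in the table (RPL22L1) began this way, compared with 43 of the other 59. A match describes the letters only.

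Ribosomal protein mRNAs took up between 3.41% and 5.44% of all gene reads in a library, and the share differed between backgrounds. KMS18 libraries averaged 5.21% ± 0.19, MM.1s libraries 3.67% ± 0.34, RPMI8226 + Mcl1 libraries 4.23% ± 0.11 and RPMI8226 libraries 4.58% ± 0.06 (SD, n = 4 each). The KMS18 libraries lay above all others and the RPMI8226 libraries above those of MM.1s and RPMI8226 + Mcl1, while the last pair overlapped. The library that set this overlap was MM.1s with CD86 shRNA, at 4.16% (95% exact binomial interval 4.15 to 4.18%, counting error only), against 3.41 to 3.58% in the other MM.1s libraries. Levels here are shares of the RNA sampled, so fewer transcripts of these genes cannot be told apart from more RNA of other genes. Summed over the 77 members, FPKM was between 28711 and 43282, and the large subunit genes summed to 1.49 to 1.67 times the small subunit genes. That ratio was 1.53 ± 0.02 in KMS18, 1.51 ± 0.02 in MM.1s, 1.66 ± 0.01 in RPMI8226 + Mcl1 and 1.62 ± 0.02 in RPMI8226 (SD, n = 4 each).

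**Figure D1:**
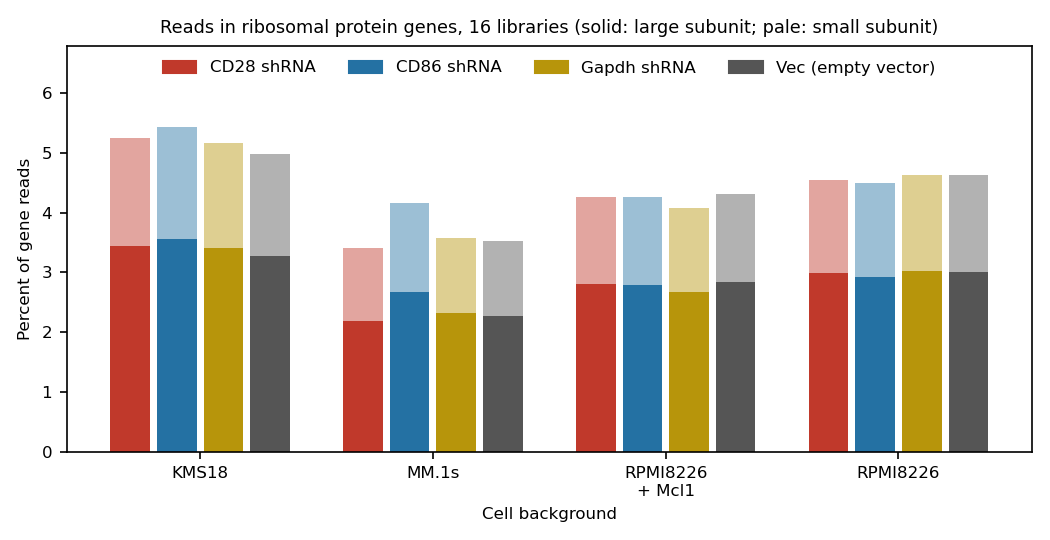
Percent of all gene reads that fall in ribosomal protein genes, 1 bar per library, grouped by cell background; the solid part is the large subunit and the pale part the small subunit. The KMS18 bars are the highest (up to 5.44%) and the MM.1s bars the lowest (down to 3.41%), with the MM.1s CD86 shRNA bar at 4.16%.

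Levels in FPKM differed widely between genes, although a ribosome holds most of these proteins in equal number. FPKM divides reads by the annotated exon length, which differed between members. RPS27 had 49811 reads in all over 351 bases (1490 FPKM), and RPL28 had 55749 reads over 5183 bases (113 FPKM). Differences in FPKM between genes therefore depend on the annotated length as well, and the part this played was not tested. RPL8 had the highest mean (1959 FPKM), and RPLP1 of the ribosomal stalk (1862), RPS27 (1490) and RPS25 (1308) were among the next. In all, 13 members averaged at least 1000 FPKM, 52 lay between 100 and 1000, and 12 lay between 10 and 100. RPS7 (10.5 FPKM), RPL7L1 (12.4), RPL9 (14.6), RPL22L1 (15.1) and RPS3A (24.8) had the lowest means among members. Many ribosomal protein genes have processed pseudogenes, near copies of the mRNA elsewhere in the genome, to which the same reads can align. Among the 76 matching symbols without a paralog mark, the 37 with under 10 pseudogenes named for them in GENCODE v29 had a median of 692 FPKM. The 23 with 10 to 19 pseudogenes had a median of 242 FPKM, and the 16 with 20 or more had a median of 126 FPKM. Spearman's rho between pseudogene number and mean FPKM was -0.56 over these 76 genes and -0.29 over all 83 matching symbols, which share the same libraries and are not independent replicates. RPSA (74 pseudogenes), RPL21 (66) and RPL7 (61) were all below 10 FPKM, while RPL23A, with 91, averaged 235 FPKM. How reads with several alignments were counted is not given in the sources used here, so levels of the pseudogene-rich genes are uncertain, and the part this played was not tested. The 29 pseudogene rows of the table held 0.185 to 0.223% as many reads as the members.

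**Figure D2:**
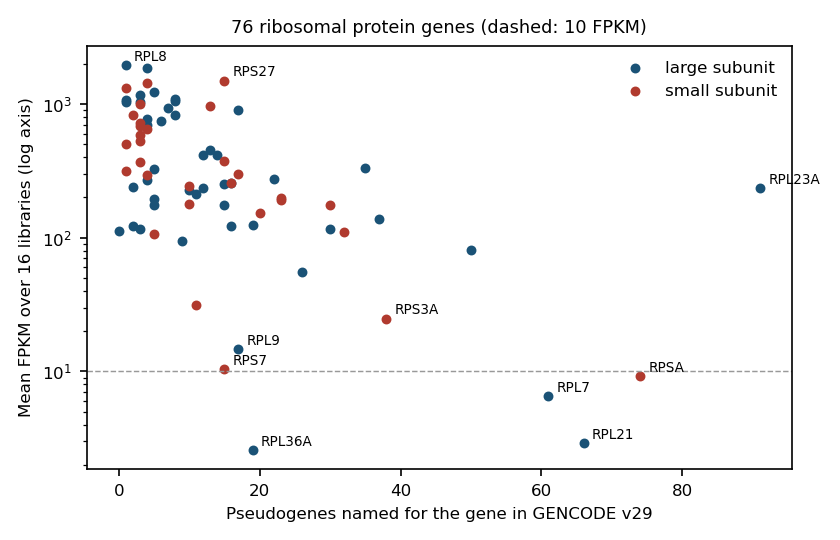
Mean FPKM over 16 libraries (log axis) against the number of pseudogenes named for each gene in GENCODE v29, for 76 ribosomal protein genes without paralog symbols. Genes with under 10 pseudogenes reach 1959 FPKM (RPL8), and RPSA, RPL21 and RPL7, each with over 60, lie below the dashed line at 10 FPKM.

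The steadiest members varied little across backgrounds and shRNAs. RPL36 ranged from 826.5 to 1016 FPKM over the 16 libraries (SD of log2 level 0.06), RPL28 from 106.1 to 131.4 FPKM (SD 0.07), and RPS15 from 761.6 to 993.9 FPKM (SD 0.09). RPL35A and RPS27A followed with SDs of 0.11 and 0.13. At the other end were RPL39L (SD 0.85; 10.7 to 80.4 FPKM), RPL30 (0.70; 98.9 to 418.2 FPKM), RPS6 (0.69; 408.1 to 1795 FPKM), RPS27L (0.66; 22.2 to 107.2 FPKM) and RPS2 (0.56; 74.1 to 217.3 FPKM). The median SD over the 77 members was 0.25.

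CD28 silencing was followed by a fall of 1 member, RPL7L1, whose symbol marks it as a paralog of RPL7. The set as a whole stayed near its Vec level. RPL7L1 is a member by its symbol, and whether its protein is part of the ribosome was not tested. RPL7L1 measured 9.22 FPKM with CD28 shRNA and 17.4 FPKM with Vec in KMS18. In MM.1s it measured 5.53 FPKM with CD28 shRNA and 13.2 FPKM with Vec. In RPMI8226 it measured 9.24 FPKM with CD28 shRNA and 12.2 FPKM with Vec. The CD28 shRNA library was the lowest of the 4 libraries in each of these lines, and also in RPMI8226 + Mcl1 (7.70 FPKM, against 10.3 FPKM with Vec). The log2 difference over the 3 parental lines was -0.78 (SE 0.13; limma adjusted p = 0.0139, lower in 3 of 3 lines). Its parent RPL7, below the level minimum, ranged from 3.196 to 13.7 FPKM over the 4 CD28 shRNA libraries and from 4.83 to 11.9 FPKM over the 4 Vec libraries. Each comparison of a shRNA with Vec used the same Vec libraries.

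That single call, 1 of 77 members, compares with 2.83% of the 11316 genes tested in this comparison, with 0.716% of all genes called higher and 2.11% called lower. The median log2 difference of the members was -0.03, against -0.003 over all genes. By line the members' median was 0.05 in KMS18, -0.09 in MM.1s and -0.04 in RPMI8226, and 28 of the 77 differences were positive. Large and small subunit genes had the same median to 2 decimals (-0.03 each). Members with the largest differences in 1 direction in all 3 lines that did not pass the test were RPS7 (-0.38, SE 0.14, adjusted p = 0.152), RPL26L1 (-0.26, SE 0.13, adjusted p = 0.279) and RPS27L (-0.26, SE 0.12, adjusted p = 0.249). On the positive side they were RPL39L (0.25, SE 0.16), RPL13A (0.22, SE 0.11) and RPL30 (0.10, SE 0.07). The RPL7L1 call was lost without MM.1s (log2 -0.61, adjusted p = 0.187) and without KMS18 (log2 -0.74, adjusted p = 0.162). The authors' deposited table, whose name marks the Gapdh and Mcl1 libraries as left out, gave RPL7L1 a log2 fold change of -0.83 (false discovery rate 0.000448) and listed no other member under 0.05, where it listed 2.7% of 14975 genes as lower.

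With CD86 silencing no ribosomal protein gene passed the limma test (0 of 77), against 0.627% of all genes (0.0619% higher and 0.566% lower). At an unadjusted p under 0.05 there were 5 members (6.49%), against 12.8% of all genes. The limma-voom fit on recovered reads also called 0 members. Most members had small positive differences, 69 of 77, with a median of 0.09 on the log2 scale (0.02 over all genes). It was widest in MM.1s. The members' median was 0.07 in KMS18, 0.23 in MM.1s, -0.04 in RPMI8226 and -0.02 in RPMI8226 + Mcl1. Summed member FPKM with CD86 shRNA was 105.9% of Vec in KMS18, 116.6% in MM.1s, 97.0% in RPMI8226 and 97.6% in RPMI8226 + Mcl1. Without MM.1s the median was 0.02, with 49 of 77 positive. The large subunit median was 0.08 and the small subunit median 0.10 over the 3 parental lines.

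The gene furthest in the other direction was RPS13, a small subunit protein, with 642.0 FPKM under CD86 shRNA and 774.2 FPKM with Vec in KMS18. It measured 434.0 FPKM with CD86 shRNA and 528.1 FPKM with Vec in MM.1s, and 355.2 FPKM with CD86 shRNA and 456.5 FPKM with Vec in RPMI8226. In RPMI8226 + Mcl1 it measured 298.7 FPKM with CD86 shRNA and 418.9 FPKM with Vec. It was thus below Vec in all 4 backgrounds, but the log2 difference of -0.30 (SE 0.09) did not pass the test over all genes (adjusted p = 0.206). The positive differences with an unadjusted p under 0.05 were RPS28 (0.22, SE 0.08), RPS6, the target of the S6 kinases (0.21, SE 0.09), RPLP0, the core of the ribosomal stalk (0.21, SE 0.08), and RPL15 (0.19, SE 0.07). RPLP0 and RPL15 are named after their values were seen. Each of the 4 was positive in 3 of 3 parental lines, with limma adjusted p between 0.276 and 0.354. RPS27L had the highest value, 0.25 (SE 0.12, adjusted p = 0.415).

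**Figure D3:**
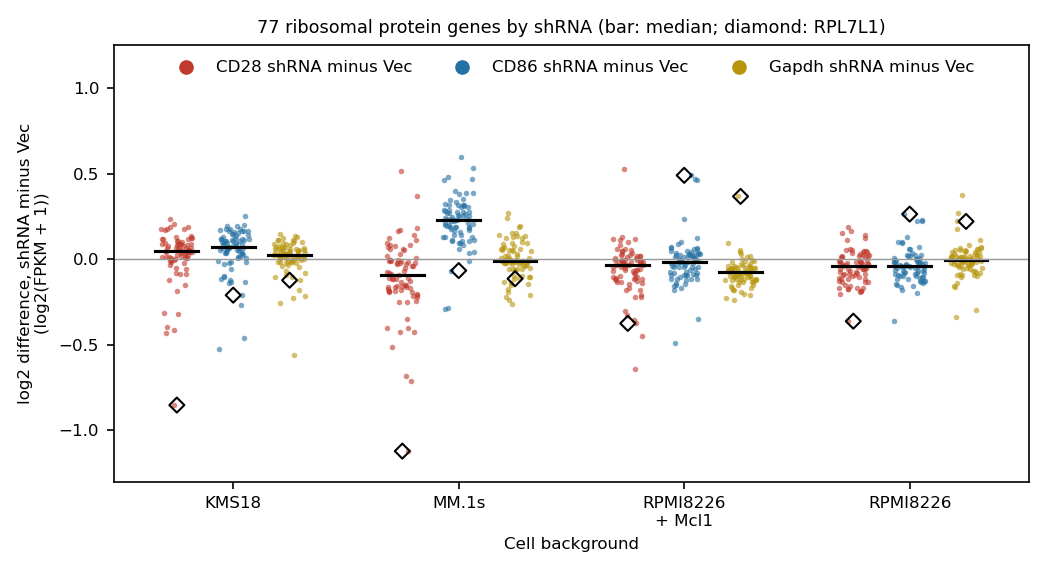
Difference in log2(FPKM + 1) from Vec for each of the 77 genes (points), by cell background and shRNA; bars are medians and diamonds mark RPL7L1. The MM.1s CD86 shRNA cloud is shifted up (median 0.23), and the RPL7L1 diamond lies below 0 for CD28 shRNA in all 4 backgrounds.

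The control shRNA gave the background for these comparisons. Gapdh shRNA libraries differed from Vec in 0 of 77 members by limma, as in 0% of all genes tested, and the voom fit also called 0. The target GAPDH was itself among the genes not called, although its level was below Vec in every background. The absence of calls here therefore does not show an absence of change. At an unadjusted p under 0.05 there was 1 member (1.3%), against 3.55% of all genes. The median difference was 0.01, and the summed member FPKM was 94.2 to 103.7% of Vec over the 4 backgrounds. The member at the unadjusted threshold was RPL26L1 (log2 -0.37, SE 0.13, lower in 3 of 3 parental lines, adjusted p = 1.00). RPS7 (-0.20) and RPL39 (-0.17) also had 1 negative direction in all 3 lines, and RPS28 (0.14), RPLP0 (0.09) and RPL30 (0.09) a positive one.

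Set directly against CD28 shRNA, CD86 shRNA libraries had higher levels of 3 members by limma, RPL7L1, RPS27L and RPL15, and no member passed as lower in that fit. The share, 3 of 77, compares with 9.51% of all genes called in either direction with 5.41% called higher and 4.1% called lower. In limma's fit RPL7L1 differed by 0.77 on the log2 scale (SE 0.13, adjusted p = 0.00758). RPS27L, a p53-induced paralog of RPS27, differed by 0.51 (SE 0.12, adjusted p = 0.0263). RPL15, a large subunit protein, differed by 0.33 (SE 0.07, adjusted p = 0.0176). The CD28 shRNA libraries were those already compared with Vec. Against Vec, RPL7L1 was at -0.78 with CD28 shRNA and at -0.004 with CD86 shRNA. Its call here is thus the fall with CD28 shRNA seen again, not a rise with CD86 shRNA. RPS27L was at -0.26 with CD28 shRNA and 0.25 with CD86 shRNA, and RPL15 at -0.14 and 0.19. RPS27L measured 34.4 FPKM with CD86 shRNA and 22.2 FPKM with CD28 shRNA in KMS18, 107.2 FPKM with CD86 shRNA and 62.1 FPKM with CD28 shRNA in MM.1s, and 82.6 FPKM with CD86 shRNA and 75.0 FPKM with CD28 shRNA in RPMI8226. RPL15 measured 137.2 FPKM with CD86 shRNA and 107.5 FPKM with CD28 shRNA in KMS18, 120.6 FPKM with CD86 shRNA and 90.3 FPKM with CD28 shRNA in MM.1s, and 83.9 FPKM with CD86 shRNA and 72.0 FPKM with CD28 shRNA in RPMI8226. The pairs were widest apart in MM.1s for both genes. All 3 genes were higher with CD86 shRNA in RPMI8226 + Mcl1 as well, by 0.87, 0.56 and 0.17 for RPL7L1, RPS27L and RPL15. Over all members the median was 0.11 (0.03 over all genes), and by line it was 0.02 in KMS18, 0.32 in MM.1s and -0.004 in RPMI8226. Without MM.1s the median was 0.003. No member was called lower in this fit, while voom on recovered reads called RPL39L lower (-0.60, adjusted p = 0.0430). RPS20 (-0.08, SE 0.07) had the lowest value with 1 sign in every parental line.

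None passed without MM.1s (adjusted p 0.0809, 0.156 and 0.132 for RPL7L1, RPS27L and RPL15) and none without KMS18 (adjusted p 0.0697, 0.176 and 0.158), and RPL15 also missed the threshold without RPMI8226 (adjusted p = 0.0624). In the authors' deposited table, for CD86 shRNA over CD28 shRNA, RPL7L1, RPS27L and RPL15 were the members under 0.05 (4.41% of its genes were higher), with false discovery rates of 0.000374 for RPL7L1, 0.00776 for RPS27L and 0.0486 for RPL15.

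The responses in RPMI8226 + Mcl1 were tested against the mean response of the 3 parental lines. No member differed for CD28 shRNA (0 of 77 by limma, against 0.00881% of all genes, a single lower one; 2 members at an unadjusted p under 0.05, 2.6%, against 3.27% of all genes) or for CD86 shRNA (0 of 77, 0% of all genes; 0 members at an unadjusted p under 0.05, against 2.58% of all genes), and the voom fit called 0 in both. With 1 library per construct in the Mcl1 line, the spread in this test came from the parental lines. For CD86 shRNA the members' median response difference was -0.12 (-0.005 over all genes), with 69 of 77 negative, and -0.05 without MM.1s. The parental mean includes KMS18 and MM.1s, so differences between lines are mixed with those of Mcl1. With CD86 shRNA the members' median difference from Vec was -0.04 in RPMI8226, the parent, and -0.02 in RPMI8226 + Mcl1. The response against RPMI8226 alone was not tested. For CD28 shRNA the median response difference was -0.003, with 42 of 77 negative. RPL39L had the lowest response difference for CD28 shRNA, -0.70 (SE 0.31), and the highest of any member was 0.56. RPS27L had the lowest for CD86 shRNA, -0.33 (SE 0.24), and RPL7L1 the highest, 0.49 (SE 0.27).

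The 3 parental lines differed in most of these genes. KMS18 against MM.1s gave 59 higher and 4 lower members of 77 (76.6% and 5.19%), while 65.3% of all genes were called, 30.8% higher and 34.5% lower. The members' median was 0.46 on the log2 scale, against -0.02 over all genes, and it was positive within each of the 4 constructs (0.28 to 0.59). In the large subunit 37 of 47 were higher and in the small subunit 22 of 30. P-values between lines measure the spread between 4 differently treated libraries of each line, which the labels do not describe as separate cultures.

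Among the members higher in KMS18, RPL30 and RPS6 had the widest differences. RPL30, a large subunit protein, ranged from 388.3 to 418.2 FPKM in the 4 KMS18 libraries and from 98.9 to 122.5 FPKM in the 4 MM.1s libraries, a log2 difference of 1.89 (SE 0.06, adjusted p = 7.59e-10). RPS6 ranged from 1665 to 1795 FPKM in KMS18 and from 408.1 to 630.7 FPKM in MM.1s (1.83, SE 0.08, adjusted p = 6.89e-09). RPL5, which with RPL11 binds the p53 regulator MDM2, averaged 484.0 ± 13.5 FPKM in KMS18 and 177.3 ± 20.6 FPKM in MM.1s (SD, n = 4 each; log2 1.45, SE 0.07). RPL8 (1.29) and RPL10 (1.28) followed. The 4 lower members were RPL39L (-1.95, SE 0.14), RPS27L (-1.39, SE 0.10), RPLP1 (-0.27, SE 0.06) and RPS24 (-0.27, SE 0.06). The groups of 4 libraries did not overlap for RPL30, RPS6, RPL5, RPL8, RPL39L and RPS27L. The share of all members or of all genes without overlap is not given here, so this is not a trait particular to them. In all, 65 of the 77 members had 1 direction in all 4 construct pairs.

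KMS18 against RPMI8226 gave 41 higher and 10 lower members (53.2% and 13%), while 70.3% of all genes were called, 35.2% higher and 35.1% lower. The median was 0.19. RPL8 averaged 3440 ± 185 FPKM in KMS18 and 1523 ± 25 FPKM in RPMI8226 (SD, n = 4 each; log2 1.17, SE 0.05). RPS20 (0.92), RPS6 (0.91), RPS3A (0.87), RPS13 (0.81) and RPL10 (0.76) were the next highest, with SEs of 0.06 to 0.09. On the lower side RPS27L led (-1.46, SE 0.10, adjusted p = 2.08e-07), followed by RPS26 (-0.69), RPLP1 (-0.69), RPL4 (-0.69) and RPS2 (-0.63). RPLP1, RPL4 and RPS27L are the 3 members on chromosome 15, and all 3 were lower in KMS18 than in RPMI8226. The median over the 360 tested genes of that chromosome was -0.16 in this comparison. Against MM.1s, RPL4 was higher in KMS18 (0.35, SE 0.07), while RPLP1 (-0.27) and RPS27L (-1.39) were lower.

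MM.1s against RPMI8226 gave 15 higher and 45 lower members (19.5% and 58.4%), while 69.1% of all genes were called, 35.9% higher and 33.2% lower. The median was -0.27 (0.03 over all genes), at -0.28, -0.27 and -0.43 in the Vec, Gapdh shRNA and CD28 shRNA pairs, and at -0.04 in the pair of CD86 shRNA libraries. Without the CD86 shRNA libraries the median was -0.35, with 13 members higher and 50 lower. RPL30 (-1.21, SE 0.06), RPS2 (-1.18, SE 0.10), RPL4 (-1.03, SE 0.07), RPL5 (-0.92, SE 0.07) and RPS6 (-0.92, SE 0.08) were among the lowest in MM.1s. RPS2 averaged 84.5 ± 14.7 FPKM in MM.1s and 190.8 ± 9.0 FPKM in RPMI8226 (SD, n = 4 each). Higher in MM.1s were RPL39L (1.60, SE 0.14), RPS3A (0.74, SE 0.08), RPL26 (0.44, SE 0.08), RPS12 (0.42, SE 0.07), RPS19, mutated in Diamond-Blackfan anaemia (0.40, SE 0.06), and RPL15 (0.38, SE 0.06).

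**Figure D4:**
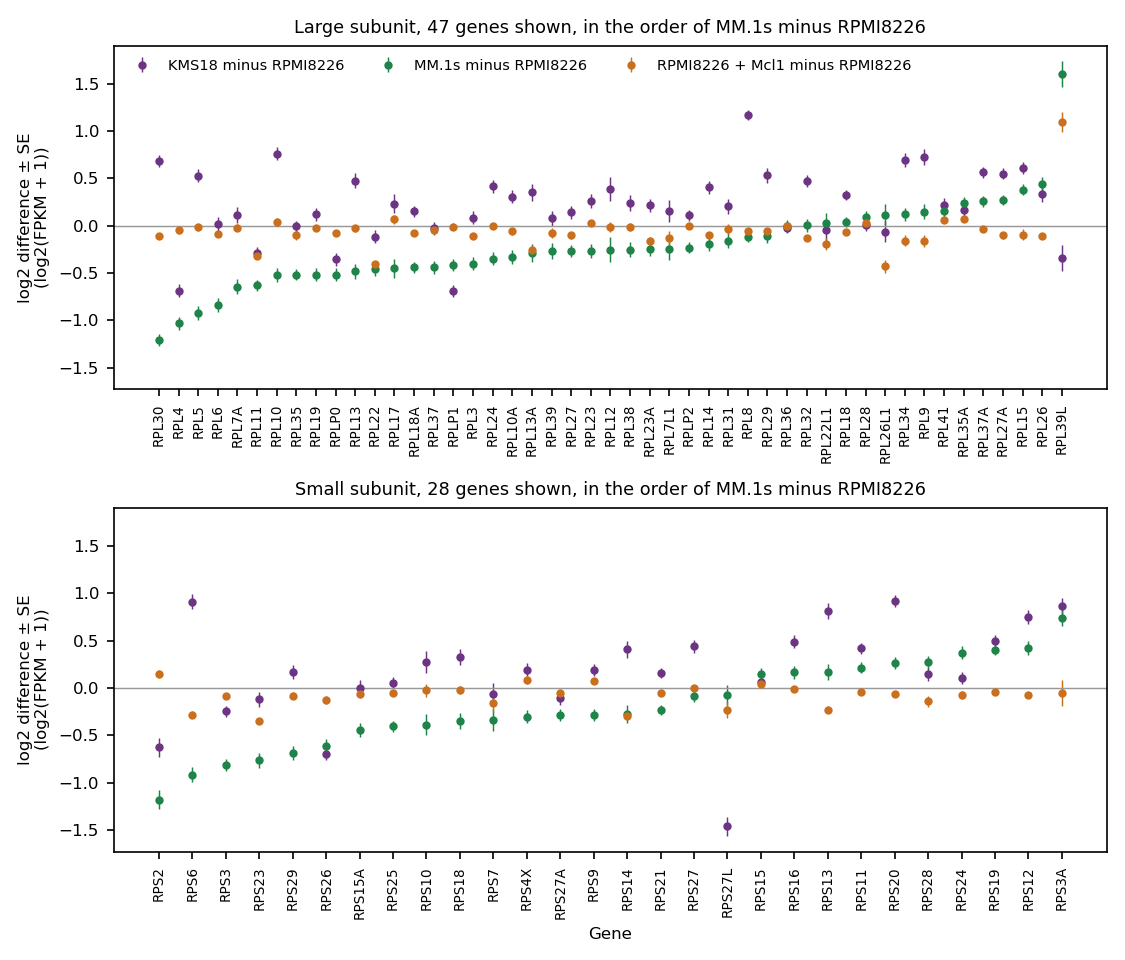
Fitted log2 difference (points) with its SE (bars) from parental RPMI8226 for the ribosomal protein genes shown, in KMS18, MM.1s and RPMI8226 + Mcl1, large subunit above and small subunit below. RPL39L is at the right of the large subunit panel at 1.60 in MM.1s and 1.10 in RPMI8226 + Mcl1, and RPS27L in KMS18 is at -1.46.

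Members on the same chromosome were also compared with all tested genes of that chromosome. Only chromosomes 1, 5, 8 and 15 are reported here, and others that hold members, such as chromosome 19, are not. Whether members in general go with their chromosome is therefore not shown. The 3 members of chromosome 8, RPL8, RPL30 and RPS20, were all higher in KMS18 than in MM.1s, with a median of 1.29, and the 390 tested genes of that chromosome had a median of 0.60. Against RPMI8226 the KMS18 median was 0.92 for these members and 0.87 for all genes of chromosome 8. On chromosome 1 all 5 members, RPL5 and RPL11 among them, had negative differences between MM.1s and RPMI8226, 4 of them past the test, with a median of -0.62, where the 1147 tested genes of the chromosome had a median of -0.15. Gene copy number was not measured, and its part in these differences was not tested.

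The Mcl1-overexpressing line differed less from its parent. RPMI8226 + Mcl1 had 2 higher and 17 lower members of 77 (2.6% and 22.1%), while 34.4% of the 11024 genes tested were called, 19.5% higher and 14.9% lower. The members' median was -0.06, against 0.03 over all genes, and 65 of 77 differences were negative. RPL39L rose in RPMI8226 + Mcl1, and RPL22, RPL26L1, RPS23, RPL11, RPS14 and RPS6 fell furthest. RPL22 ranged from 224.7 to 254.7 FPKM in the 4 libraries with Mcl1 and from 310.1 to 338.7 FPKM in the 4 without (log2 -0.41, SE 0.03, adjusted p = 0.000122). RPL26L1 averaged 31.2 ± 3.6 FPKM with Mcl1 and 42.3 ± 4.5 FPKM without (SD, n = 4 each; -0.43, SE 0.07, adjusted p = 0.00300), and the 2 sets of libraries overlapped. RPS23 was at -0.35 (SE 0.03), RPL11 at -0.32 (SE 0.03), RPS14, the gene of the 5q- syndrome, at -0.30 (SE 0.03) and RPS6 at -0.28 (SE 0.04). RPS23, RPS14 and RPL26L1 are 3 of the 4 members on chromosome 5, whose median was -0.32, and the 483 tested genes of that chromosome had a median of -0.19. RPL22 and RPL11 lie on chromosome 1, where the median over 1123 genes was -0.04. RPS2 was the other higher gene (0.14, SE 0.04, adjusted p = 0.0361), a call lost under 8 of 11 alternatives, and RPS9 (0.08) and RPL35A (0.07) had positive differences in all 4 construct pairs without passing the test (adjusted p 0.0901 and 0.0515). The number of calls changed with the processing, from 9 to 40 of 77, with the lower genes in the majority under each setting tried.

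RPL39L, a paralog of RPL39 best known from male germ cells, averaged 14.5 ± 2.6 FPKM in KMS18, 59.4 ± 14.8 FPKM in MM.1s, 41.0 ± 5.8 FPKM in RPMI8226 + Mcl1 and 18.6 ± 2.1 FPKM in RPMI8226 (SD, n = 4 each). MM.1s and RPMI8226 + Mcl1 overlapped, and so did KMS18 and RPMI8226, but neither of the first pair overlapped with either of the second. KMS18 was lower than RPMI8226 by a log2 difference of -0.34 (SE 0.14, limma adjusted p = 0.0420), a call lost under 7 of 11 alternatives. RPL39 ranged from 135.9 to 202.3 FPKM, and RPL39L stood at 7.58% ± 1.44 of RPL39 in KMS18, 40.3% ± 13.7 in MM.1s, 23.8% ± 3.2 in RPMI8226 + Mcl1 and 10.3% ± 2.1 in RPMI8226. Between RPMI8226 + Mcl1 and RPMI8226, RPL39L rose by 1.10 on the log2 scale (SE 0.11, adjusted p = 0.000339, higher in 4 of 4 pairs), whereas RPL39 was at -0.08 (SE 0.05, adjusted p = 0.270). RPL39L had between 42 and 276 reads in a library, the lowest number of any member.

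RPS27L averaged 28.7 ± 5.1 FPKM in KMS18, 77.5 ± 20.4 FPKM in MM.1s, 68.7 ± 13 FPKM in RPMI8226 + Mcl1 and 79.9 ± 3.5 FPKM in RPMI8226 (SD, n = 4 each). Every KMS18 library (22.2 to 34.4 FPKM) was below every library of the other backgrounds (49.4 FPKM or more). RPS27, the parent, was higher in KMS18: 1765 to 1972 FPKM in KMS18 and 1344 to 1431 FPKM in RPMI8226 (log2 0.44, SE 0.07). RPL26L1 was at 8.83 to 11.6% of RPL26 in the means of the 4 backgrounds, and RPL22L1 at 4.89 to 6.86% of RPL22. Neither RPL26L1 nor RPL22L1 differed past the test between any of the parental lines, while RPL22 was lower in MM.1s than in RPMI8226 (-0.46, SE 0.07) and RPL26 was higher (0.44). Reads from near-identical copies could be divided between a paralog and its parent, depending on the counting. RPL36AL, whose symbol the selection did not match, averaged 280.4 ± 28.2 FPKM in KMS18, 171.2 ± 14.2 in MM.1s, 204.9 ± 22.0 in RPMI8226 + Mcl1 and 240.1 ± 20.3 in RPMI8226, while RPL36A was at 2.60 FPKM over all libraries.

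**Figure D5:**
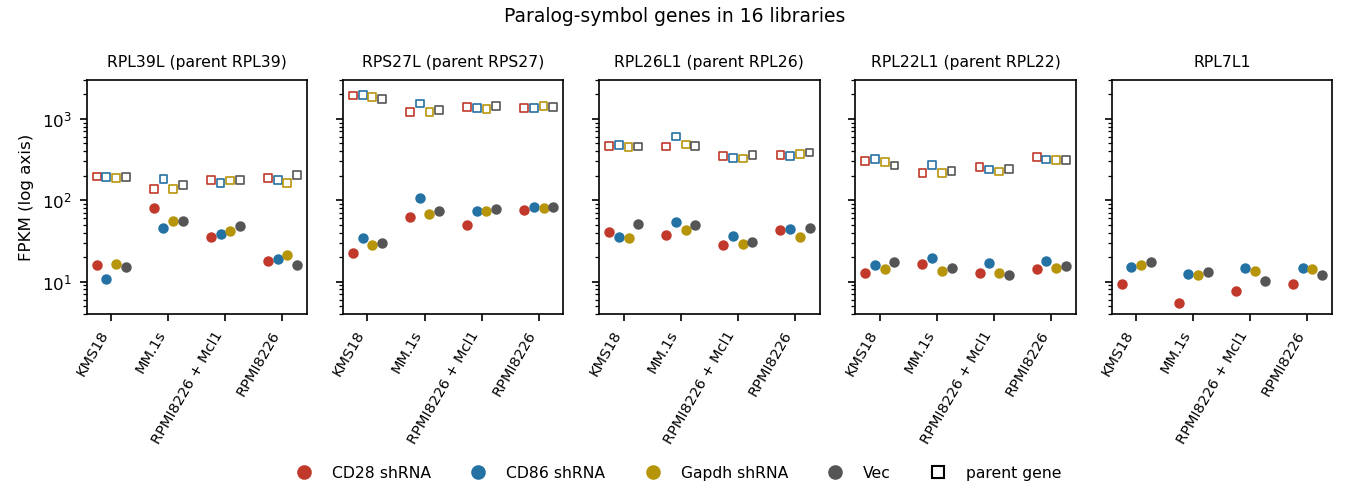
FPKM (log axis) of the 5 paralog-symbol genes (filled circles) in each of the 16 libraries, with the parent gene as open squares where it is a member, by cell background and coloured by construct. RPL39L is high in MM.1s and RPMI8226 + Mcl1, RPS27L is low in KMS18 (22.2 to 34.4 FPKM), and RPL7L1 is lowest under CD28 shRNA in each background.

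RPS4X, the X-linked copy of a small subunit gene, averaged 225.6 ± 8.8 FPKM in KMS18, 160.2 ± 19.7 in MM.1s, 209.0 ± 10.4 in RPMI8226 + Mcl1 and 197.1 ± 10.8 in RPMI8226, and passed no test of a shRNA. Of the ribosomal proteins with other symbols, FAU (eS30) and GNB2L1 (RACK1) were each higher in KMS18 than in MM.1s, by 0.24 and 0.61, and each lower in MM.1s than in RPMI8226, with log2 differences of -0.56 and -0.33. Between KMS18 and RPMI8226 GNB2L1 was higher (0.28) and FAU lower (-0.32). Neither passed a test of CD28, CD86 or Gapdh shRNA against Vec. Between RPMI8226 + Mcl1 and RPMI8226 GNB2L1 was lower (-0.35, SE 0.04, adjusted p = 0.000461).

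Genes that share the TOP start or act on ribosomal protein synthesis were counted from fixed lists. Of 20 translation factors and other TOP mRNAs, 17 were higher and 0 lower in KMS18 than in MM.1s, with a median of 0.50. The largest were EIF3E, an initiation factor subunit (2.21, SE 0.08), PABPC1, the polyA-binding protein (1.87, SE 0.05), EEF1D, an elongation factor subunit (1.30, SE 0.07), and TPT1 (1.21, SE 0.06). Between MM.1s and RPMI8226, 3 of the 20 were higher and 10 lower, and between RPMI8226 + Mcl1 and RPMI8226, 1 was higher and 8 lower. Under the shRNAs none of the 20 passed against Vec, and 2 did between CD86 shRNA and CD28 shRNA, EIF3K (0.40) and HNRNPA1 (0.26). Of 11 TOP host RNAs of small nucleolar RNAs, 8 were higher and 2 lower in KMS18 than in MM.1s, ZFAS1 (1.86, SE 0.10) and GAS5 (1.27, SE 0.07) furthest, and none passed in a shRNA comparison. These counts read against the percentages of all genes given for each comparison. Unlike the members, these listed genes were not set against all tested genes of their chromosomes. Whether their line differences go with the TOP start or with chromosome position was not tested.

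Among 20 regulators of ribosomal protein and ribosomal RNA synthesis, 1 was lower with CD28 shRNA, MYC (-0.54, SE 0.13, limma adjusted p = 0.0496), and none higher. Of all genes tested, 2.11% were called lower with CD28 shRNA and 0.566% with CD86 shRNA, so 1 call in a list of this size says little about the list. The MYC call lay just under the threshold. MYC measured 210.4, 196.5 and 376.9 FPKM with CD28 shRNA in KMS18, MM.1s and RPMI8226, against 352.7, 338.3 and 401.4 FPKM with Vec. The difference was widest in MM.1s and KMS18. In RPMI8226 + Mcl1 MYC measured 326.4 FPKM with CD28 shRNA and 361.0 FPKM with Vec. With CD86 shRNA, RRN3, an RNA polymerase I factor, was the 1 regulator that passed (-0.92, SE 0.15, adjusted p = 0.0241), and MYC did not (-0.17, SE 0.13, adjusted p = 0.600). Of 18 ribosomal protein chaperones and assembly or quality-control factors, RIOK1, a kinase of small subunit maturation, was lower with CD28 shRNA (-0.72, SE 0.16, adjusted p = 0.0445) and none passed with CD86 shRNA. Mitochondrial ribosomal proteins, which belong to a separate ribosome, had 3 lower and 0 higher of 76 tested with CD28 shRNA, with a median of -0.15, where 2.83% of all genes passed. With CD86 shRNA 1 was lower, with a median of -0.005, where 0.627% of all genes passed. The control Gapdh shRNA gave 0 calls and a median of -0.07, with 61 of 76 differences negative, against 58 of 76 for CD28 shRNA.

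Introns of ribosomal protein genes carry small nucleolar RNAs, which guide ribosomal RNA modification. Of 49 such RNAs listed with a member as host, 40 had a row in the table and 35 were tested. With CD28 shRNA 3 passed, SNORD32A in RPL13A (1.60), SNORD18B in RPL4 (-2.11) and SNORD68 in RPL13 (-1.09), against 2.83% of all genes, and with CD86 shRNA 1 passed, SNORD32A (1.97), against 0.627%. With the control Gapdh shRNA SNORD32A had a difference of 1.58 (limma adjusted p = 1.00), against the same Vec libraries, which held 1 to 2 reads of it in the parental lines. SNORD32A had 0 to 9 reads in a library, SNORD18B 0 to 3 and SNORD68 1 to 23, and 25 of the 40 had at most 10 reads in every library. Their hosts RPL13A (0.22), RPL4 and RPL13 (-0.15) did not pass with CD28 shRNA. These numbers are at the limit of what polyA-selected libraries of this depth can show.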

How the data were processed

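RNA-seq of 16 libraries was read from 1 deposited table. Its FPKM values per gene were made by the authors, with edgeR 3.12.1, R 3.2.2, TopHat2 2.0.13 and Picard among the tools and mm9, hg19 and GRCh37 among the builds, per the submitters' processing notes, which assign them no role. Per the labels, RNA was extracted with RNeasy columns and made into TruSeq mRNA libraries. The log2 fold changes, p-values and FDR values of the authors' own comparisons were used as deposited.

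In each library the product of FPKM and exon length was a whole multiple of a smallest unit for all genes (tolerance 0.02), and dividing by that unit recovered gene reads. The deposited values are FPKM and not counts, so the count test first planned was replaced. That test was not run on the recovered reads, which served for the shares of reads and the limma-voom fit. Comparisons were fitted with limma 3.58.1 in R 4.3.3 on log2(FPKM + 1), with a mean-dependent prior, over genes averaging at least 1 FPKM, with Benjamini-Hochberg adjustment over all genes and a threshold of 0.05. The pseudocount understates the change of low genes. The 12 parental libraries were fitted with line and shRNA terms (6 residual degrees of freedom), and the 8 libraries of RPMI8226 with and without Mcl1 likewise (3). Adjusted p-values in the text are from limma unless named otherwise. The 4 libraries of a line are not described as separate cultures, so p-values measure the spread between these samples, which may be technical. The script was tested on simulated data.

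The line pairs libraries across shRNAs by the labels. Deviations from each shRNA's mean over the parental lines correlated at 0.870 to 0.952 for libraries of 1 line (18 pairs). For libraries of different lines they correlated at -0.644 to -0.276 (48 pairs). Subtracting that mean by itself pushes the correlations between lines below 0, so their sign is no evidence for the pairing.

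The members and gene lists were chosen with earlier results of these data known. Genes named are the paralog symbols with their parents, RPS4X and ribosomal proteins with other symbols; per comparison up to 6 members furthest in each direction past the threshold (or, where fewer than 3 passed, the 3 furthest with 1 direction in every line); the 5 highest and lowest in level and in spread; up to 4 genes past the threshold per list; and MYC and the targeted genes. The 61 rows without a symbol were left out of the members. Start windows are from RefSeq, and pseudogene numbers from GENCODE v29 names. Binomial intervals cover counting error only. Alternatives covered the pseudocount, the filter on low values, scaling, a limma-voom fit on the recovered reads (chosen after seeing the data), the pairing terms and leaving out libraries. Some genes that the naming rule selects are not reported here.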

Additional observations from a re-analysis of the deposited data

Results flagged for a closer look

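Among 48 sets of 4 libraries (1 measure in 1 background), 3 had 1 library far from the other 3, where chance gives about 1 in 20 sets. All 3 were levels of a gene. RPL7L1 was at 5.53 FPKM in the MM.1s CD28 shRNA library, against 12.1 to 13.2 FPKM in the other MM.1s libraries. RPS27L was at 49.4 FPKM in the RPMI8226 + Mcl1 CD28 shRNA library, against 73.1 to 77.5 FPKM in the other libraries of that line. RPL39 was at 164.1 FPKM in the RPMI8226 + Mcl1 CD86 shRNA library, against 174.6 to 176.0 FPKM in the others.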

How the results depend on the processing

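Of 220 summary values under alternatives, 202 stayed within the size tolerance set for them and 18 moved beyond it. This tolerance did not check the sign of medians near 0. The members' median for the CD28 shRNA response in RPMI8226 + Mcl1 was -0.003 in the main fit and 0.008 with TMM scaling. Of 1536 values of single genes, 40 lost and 13 gained the threshold, and none changed sign while called. Between RPMI8226 + Mcl1 and RPMI8226 the 19 called members became 11 with no filter on low values, 30 with TMM scaling, 30 with median-of-ratios scaling, 37 with voom on recovered reads, 40 with voom and library sizes without ribosomal protein genes, 9 with no replicate block (the shRNA term left out) and 11 to 14 when the libraries of 1 construct were left out. Its median log2 difference was -0.094 with voom and -0.100 with voom and those library sizes. For CD86 shRNA against CD28 shRNA the 3 called members became 5 (4 higher and 1 lower, RPL39L) and 6 (all higher) under the same 2 voom fits, 0 with no replicate block (the line term left out) and 0 to 3 when 1 line was left out. For CD28 shRNA against Vec the 1 called member became 0 with no replicate block and 0 to 1 when 1 line was left out. Without the block RPL7L1 had an adjusted p of 1.00 by limma, and over the alternatives that kept it between 0.00873 and 0.187. With no replicate block the line comparisons called 47 (KMS18 against RPMI8226), 56 (MM.1s against RPMI8226) and 61 members (KMS18 against MM.1s). The RPMI8226 share of gene reads was 4.47% when members had to reach 100 FPKM. The cause of these changes was not tested. The edgeR quasi-likelihood test listed beforehand was not run, since the deposited unit is FPKM. Depth limits RPL39L (42 reads at the lowest) and the small nucleolar RNAs most.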
